A study of Homo sapiens with 12 samples.

Results

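The genes described here encode 9 proteins of the complement system: the proteases C1R, C1S and CFB, the C1R-like protease C1RL, the central component C3, the soluble regulators CFI and SERPING1, and the membrane regulators CD55 and CD59. They are 9 of the 19775 genes named by a single-symbol probe set on the array, and 19 probe sets carry their symbols. A probe set is a group of short oligonucleotides that together report 1 transcript or a few, and each was kept on its own. The genes were selected on their role in complement with earlier results of Kbr against control on these same arrays known. Their differences between Kbr and control are therefore given as a description, with no test.

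Messenger RNA was measured on 12 Affymetrix arrays in HK-2 cells, a single immortalised line of human proximal tubule epithelium. The 4 groups of 3 biological replicates were HK-2 cultures given a high dose of Kbr for 24 h, vehicle for 24 h, Kbr at the high dose for 48 h and vehicle for 48 h. All cultures grew in the same defined medium with EGF, hydrocortisone, insulin, transferrin and selenite, and the labels give the dose only as high. The series asked how nephrotoxic compounds change gene expression in these cells. Values are log2 units made by GCRMA, a method that corrects each probe's background from its sequence, so a difference of 1 is a 2-fold change on that scale. The lowest values are background, and levels are not compared between probe sets.

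Complement is a cascade of plasma and cell-surface proteins. In the classical pathway C1R activates C1S, which cleaves the components that build an enzyme acting on C3. In the alternative pathway CFB supplies the protease that cleaves C3 and amplifies the cascade. CFI degrades deposited C3b, SERPING1 blocks C1R and C1S, CD55 speeds the decay of the C3-cleaving enzymes, and CD59 stops assembly of the membrane attack complex. CD55 and CD59 are both held on the cell surface by a glycosylphosphatidylinositol (GPI) anchor. The liver is the main source of the plasma components, and kidney tubule cells are known to make C3 and CFB as well.

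Promoter windows are shown first for 2 genes that were lower under Kbr, CFB and C1RL, and for CD55, which was higher, and each was searched for binding motifs of inflammatory transcription factors. The windows were chosen with the values known, so the matches are not compared with the direction of a gene. The CD55 window holds no match, nor does that of CFI, and no window was used here for C1S, C3 and SERPING1. RefSeq windows of 300 bases in GRCh38.p14, 250 before and 50 after the annotated start, were available for 6 of the 9 genes, and the 250 bases before the start are printed 5′ to 3′ on the gene's strand. The windows lie at chr6:31945845-31946094 on the plus strand (CFB), chr12:7109215-7109464 on the minus strand (C1RL) and chr1:207321428-207321677 on the plus strand (CD55). Capitals mark every match found on either strand.
CFB: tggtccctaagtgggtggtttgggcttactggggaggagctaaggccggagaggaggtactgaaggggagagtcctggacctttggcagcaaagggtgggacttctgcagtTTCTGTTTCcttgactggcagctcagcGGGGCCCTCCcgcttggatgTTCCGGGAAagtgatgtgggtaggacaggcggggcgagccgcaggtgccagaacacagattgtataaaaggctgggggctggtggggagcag
C1RL: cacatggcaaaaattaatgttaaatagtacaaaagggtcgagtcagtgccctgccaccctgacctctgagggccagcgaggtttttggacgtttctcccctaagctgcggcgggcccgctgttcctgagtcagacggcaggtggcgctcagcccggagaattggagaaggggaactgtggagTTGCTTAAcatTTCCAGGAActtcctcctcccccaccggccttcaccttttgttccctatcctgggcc
CD55: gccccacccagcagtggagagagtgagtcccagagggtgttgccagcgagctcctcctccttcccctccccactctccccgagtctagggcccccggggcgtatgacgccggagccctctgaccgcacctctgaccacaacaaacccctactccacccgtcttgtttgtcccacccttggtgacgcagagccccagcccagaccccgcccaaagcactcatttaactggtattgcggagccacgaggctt
In the CFB window the capitals are, from the 5′ end, TTCTGTTTC (an interferon response core, GAAANNGAA, on the reverse strand), GGGGCCCTCC (the NF-kB motif) and TTCCGGGAA (the STAT motif TTCNNNGAA), which begin 139, 112 and 92 bases before the start. The C1RL window holds TTGCTTAA (the C/EBP motif TTGCNNAA) 68 bases before the start and TTCCAGGAA (the STAT motif) 57 bases before it.
No 2 matches overlap in these windows. Over all 35116 windows of this length the STAT motif occurred in 7.66%, the interferon core in 8.11%, the NF-kB motif in 11.3%, the C/EBP motif in 10.5% and the antioxidant core TGACNNNGC in 13.3%. Of the 10 windows of the 9 genes, 5 held the STAT motif (C1R, C1RL, CFB and 2 overlapping windows of CD59), 4 the C/EBP motif, 1 the NF-kB motif, 1 the interferon core and 0 the antioxidant core. A match describes the letters only. Whether a factor bound any of these windows was not measured.

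**Figure D1:**
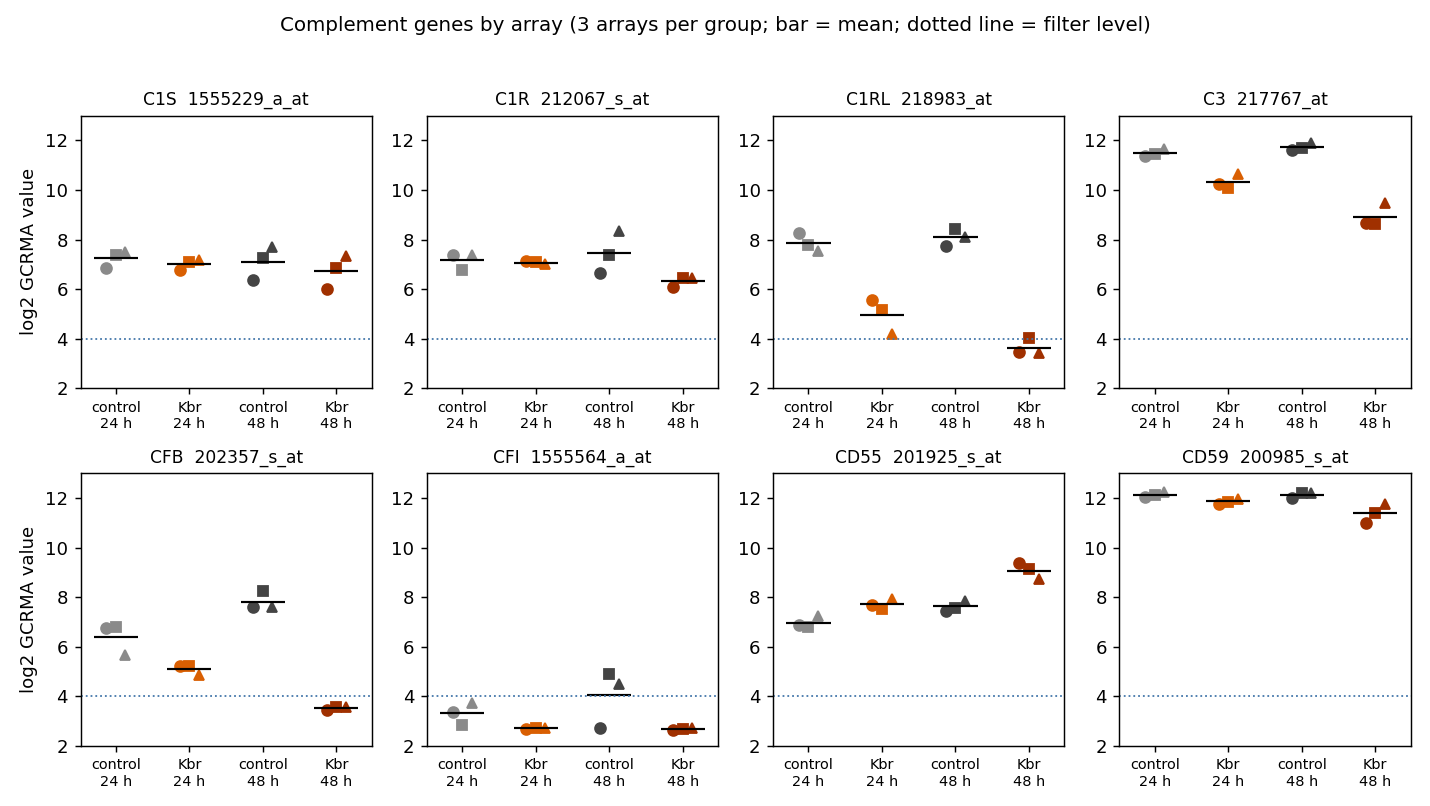
Log2 GCRMA value (y axis) in each of the 12 arrays for 8 genes, each by its probe set with the largest difference at 24 h, with 3 arrays per group, 1 point shape per replicate number, a bar at the group mean and a dotted line at the filter level of 4. The Kbr arrays of C1RL, C3 and CFB lie below the control arrays of the same time, those of CD55 lie above them, and the C1S arrays of all 4 groups overlap.

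Among the components, C1RL, C3 and CFB were lower under Kbr with no overlap between the arrays of a time point, and the gap was wider at 48 h than at 24 h. C1R was lower at 48 h, and C1S overlapped at both times. Among the membrane regulators CD55 was higher and CD59 lower at 48 h. To be tested across the array a probe set needed 3 or more arrays above a log2 value of 4, and 14 of the 19 probe sets, from 7 genes, did so. The 5 below that level include all those of CFI and SERPING1. With 3 arrays a group, their number limits the precision of every difference. A gene that passes only through the group where it is high has to differ. CFB (202357_s_at) exceeded 4 in 9 arrays and C1RL (218983_at) in 10, with every Kbr array at 24 h among them. Their Kbr arrays at 48 h lay near or below 4, which limits the size of a difference that can be measured there.

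C1R, the protease that activates C1S, gave values of 7.39, 6.77 and 7.39 in the control arrays at 24 h (replicates 1, 2 and 3) and 7.12, 7.09 and 7.01 in the Kbr arrays. At 48 h its control values were 6.63, 7.37 and 8.35 and its Kbr values 6.08, 6.46 and 6.45. The groups overlapped at 24 h and were separate at 48 h, where the control arrays spread over more than the difference itself. The log2 difference, Kbr minus control, was -0.11 (SE 0.35) at 24 h and -1.12 (SE 0.35) at 48 h, where SE is the moderated standard error over 3 arrays a group. Without replicate 1 of Kbr at 48 h the second value was -0.996 and no longer passed the threshold used across the array.

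C1S, the protease that cleaves the next components of the classical pathway, was read by a pair of probe sets. The 208747_s_at values were 7.84, 8.34 and 8.02 in control and 7.741, 8.156 and 7.999 in Kbr at 24 h, and 7.56, 8.06 and 8.52 in control and 7.21, 7.65 and 8.12 in Kbr at 48 h. At both times the groups overlapped, and within each group at 48 h replicate 1 was lowest and replicate 3 highest. The second probe set, 1555229_a_at, ran from 6.02 to 7.70 over the 12 arrays and also overlapped at both times. The differences were -0.10 (SE 0.27) and -0.39 (SE 0.27) for the first at 24 h and 48 h, and -0.23 (SE 0.37) and -0.37 (SE 0.37) for the second. Within each replicate number, which pairs the arrays, C1S was lower under Kbr in 12 of 12 comparisons of its probe sets: 208747_s_at differed by -0.10, -0.19 and -0.02 at 24 h and by -0.36, -0.41 and -0.39 at 48 h (numbers 1, 2 and 3). The overlap of the groups thus does not show that C1S was the same in both. The probe sets read the same cultures and correlated at r = 0.942, so the 12 comparisons are not independent. How many probe sets of the whole array did the same was not counted.

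C1RL, a protease related to C1R, had the largest difference of the 14 probe sets at 24 h. Its probe set 218983_at gave 8.27, 7.79 and 7.55 in control and 5.56, 5.15 and 4.21 in Kbr at 24 h, and 7.73, 8.44 and 8.10 in control and 3.45, 4.01 and 3.42 in Kbr at 48 h. Every Kbr array was far below every control array, and by 48 h the Kbr arrays had reached the level of the filter. The difference was -2.90 (SE 0.33) at 24 h, which is 7.45-fold lower, and -4.46 (SE 0.33) at 48 h. No fold is given at 48 h, where the Kbr arrays were at or near background and the size of the difference depends on that level. With an offset of 32 added on the linear scale, which shrinks differences of low values, the differences were -2.04 and -2.78. The other probe set of the gene, 233645_s_at, stayed below the filter at 3.11 to 3.69 in all arrays and did not follow this pattern.

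C1S, C1R and C1RL lie next to each other in that order on chromosome 12 in the reference gene table. Their differences at 24 h, set side by side, were -0.10 (C1S 208747_s_at), -0.11 (C1R) and -2.90 (C1RL), and at 48 h -0.39, -1.12 and -4.46. C1RL thus had the largest difference of the 3 neighbours at both times. The C1S and C1R differences at 24 h were smaller than their SEs (0.27 and 0.35), so no likeness is read from them. No test compared the 3 genes.

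C3, the component on which all complement pathways converge, gave 11.36, 11.47 and 11.66 in control and 10.23, 10.07 and 10.66 in Kbr at 24 h. At 48 h its values were 11.60, 11.70 and 11.91 in control and 8.68, 8.61 and 9.46 in Kbr. The groups were separate at both times, and replicate 3 was the highest array of each group. The difference was -1.18 (SE 0.22), 2.26-fold lower, at 24 h and -2.82 (SE 0.22), 7.07-fold lower, at 48 h. All C3 values lay far above the filter, and C3 remained separate between the groups with no array near background.

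CFB, the protease of the alternative pathway, was reported by 2 probe sets that disagreed. Probe set 202357_s_at gave 6.74, 6.78 and 5.65 in control and 5.22, 5.23 and 4.86 in Kbr at 24 h, and 7.61, 8.24 and 7.62 in control and 3.43, 3.58 and 3.58 in Kbr at 48 h. Control replicate 3 at 24 h stood below its 2 companions by about 1 unit, yet above every Kbr array. The differences were -1.29 (SE 0.28), 2.44-fold lower, and -4.29 (SE 0.28), for which no fold is given because the Kbr arrays at 48 h were at background. With the offset of 32 they were -0.82 and -2.57. Probe set 211920_at was flat, between 4.46 and 4.77 in all 12 arrays, with differences of 0.03 (SE 0.10) and -0.05 (SE 0.10). Why the 2 probe sets disagree was not tested, and the CFB values in the remaining paragraphs are those of 202357_s_at.

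CFI, the protease that degrades C3b, stayed at background in every Kbr array and exceeded a log2 value of 4 in only 2 arrays, both controls at 48 h. Probe set 1555564_a_at gave 3.37, 2.86 and 3.73 in control and 2.69, 2.72 and 2.72 in Kbr at 24 h, and 2.74, 4.91 and 4.48 in control and 2.66, 2.69 and 2.70 in Kbr at 48 h. The groups did not overlap, but control replicate 1 at 48 h was close to the Kbr arrays. The second probe set, 203854_at, was 2.74, 3.67 and 3.33 in control and 2.05 to 2.06 in Kbr at 48 h, and overlapped at 24 h. No difference or fold is given, because the Kbr side is background.

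SERPING1, the inhibitor of C1R and C1S, lay between 2.20 and 2.25 in all 12 arrays. Its 1 probe set, 200986_at, therefore gave no signal above background in any group, which shows that the transcript was not detectable with this probe set and not that it was absent. A probe set of CD59, 228748_at, also stayed at background in all arrays, from 2.62 to 3.03.

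CD55, which dissociates the C3-cleaving enzymes, had higher values under Kbr in all 3 of its probe sets. The 201925_s_at values were 6.87, 6.78 and 7.25 in control and 7.68, 7.53 and 7.91 in Kbr at 24 h, and 7.46, 7.56 and 7.85 in control and 9.37, 9.12 and 8.71 in Kbr at 48 h. The groups were separate at both times, and the 24 h Kbr arrays reached the level of the 48 h controls. Its differences were 0.74 (SE 0.19), 1.67-fold higher, and 1.44 (SE 0.19), 2.72-fold higher. The value at 24 h no longer passed the threshold used across the array without replicate 3 of Kbr (0.64), replicate 1 of control (0.69) or replicate 2 of control (0.65) at that time.

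The other CD55 probe sets gave smaller values of the same sign. In 201926_s_at the control and Kbr arrays overlapped at 24 h (7.37 to 7.90 against 7.75 to 8.15) and were separate at 48 h (8.02 to 8.31 against 8.95 to 9.25). In 1555950_a_at the ranges were 7.77 to 8.03 against 7.86 to 8.32 at 24 h and 8.20 to 8.41 against 8.92 to 9.12 at 48 h. The differences at 24 h were 0.31 (SE 0.16) and 0.20 (SE 0.13), and those at 48 h 0.91 (SE 0.16) and 0.75 (SE 0.13). The 3 probe sets of the gene shared a direction and differed in size. Within each replicate number all 3 were higher under Kbr at both times. At 24 h 201926_s_at differed by 0.39, 0.30 and 0.25 (numbers 1, 2 and 3) and 1555950_a_at by 0.09, 0.22 and 0.29. How many probe sets of the whole array did the same was not counted. Over the 12 arrays the 3 probe sets correlated with each other at r = 0.939 to 0.975.

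CD59, the inhibitor of the membrane attack complex, was lower under Kbr at 48 h in the 4 probe sets above the filter. For 200985_s_at the control values were 12.06, 12.14 and 12.23 and the Kbr values 11.77, 11.85 and 11.98 at 24 h, and at 48 h they were 11.997, 12.199 and 12.200 against 10.98, 11.39 and 11.78. Both times were separate, and the Kbr arrays at 48 h spread more than any other group (SD 0.40 against 0.08 to 0.12). The differences of the 4 probe sets lay between -0.28 and -0.23 at 24 h, with SEs of 0.13 to 0.22. At 48 h they were -0.81 (SE 0.21) for 200983_x_at, -0.66 (SE 0.22) for 200984_s_at, -0.75 (SE 0.17) for 200985_s_at and -0.62 (SE 0.13) for 212463_at. Within each replicate number all 4 were lower under Kbr at both times. At 24 h 200985_s_at differed by -0.29, -0.30 and -0.25 (numbers 1, 2 and 3). These probe sets read the same cultures, and how many of the whole array did the same was not counted.

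The 200984_s_at value is the least firm of the CD59 set. It no longer passed the threshold used across the array without Kbr replicate 1 (-0.42), Kbr replicate 2 (-0.68), control replicate 2 (-0.65) or control replicate 3 (-0.57) at 48 h, and its groups just overlapped at 48 h, with a highest Kbr value of 11.40 and a lowest control value of 11.39. In the Kbr arrays at 48 h the 3 brighter CD59 probe sets and C1S were lowest in replicate 1 and highest in replicate 3, the array that stood furthest from its group over all tested probe sets (root mean square deviation 0.300 log2 units, against 0.174 to 0.241 in the other 11 arrays). The fourth, 212463_at, gave 6.78, 7.17 and 7.17 there.

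**Figure D2:**
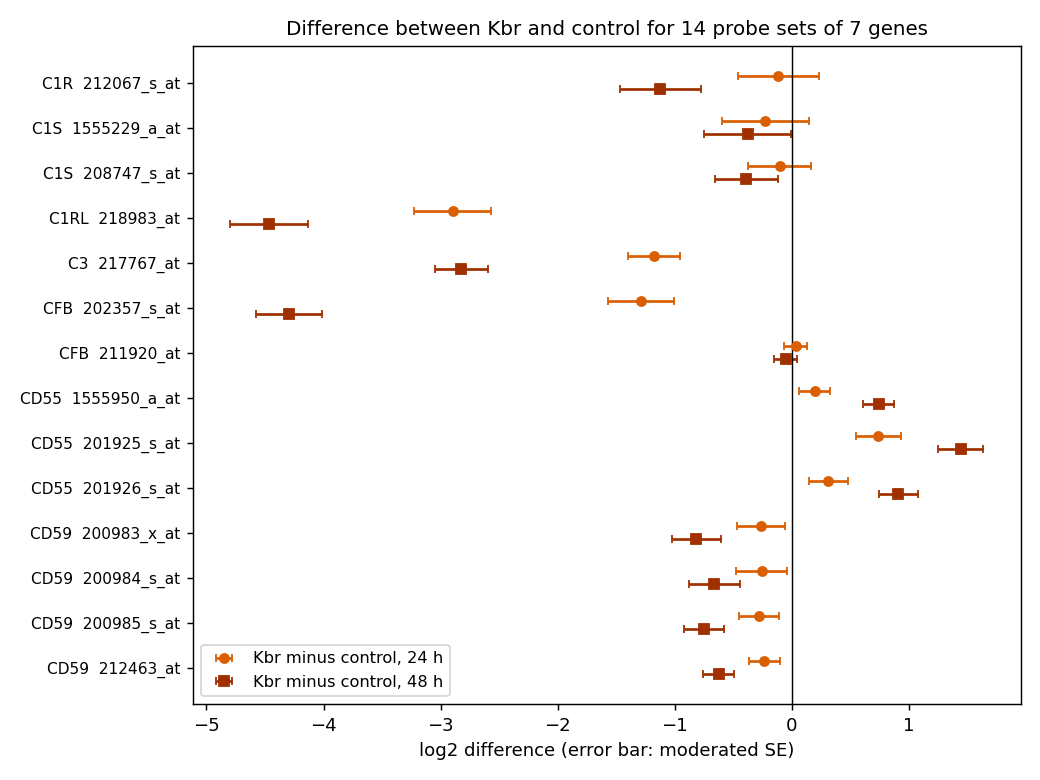
Log2 difference, Kbr minus control (x axis), for the 14 probe sets above the filter at 24 h (circles) and 48 h (squares), with the moderated SE as error bars and 3 arrays a group. The 3 CD55 probe sets lie right of 0 and C1RL, C3, CFB 202357_s_at and CD59 left of it, with CFB 211920_at at 0.

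Set against the whole array, the counts read as follows. Differences across all 22215 tested probe sets were called with limma at a Benjamini-Hochberg adjusted p under 0.05. At 24 h, 1 of the 14 probe sets was called higher, where 11.3% of all tested probe sets were, and 3 were called lower, where 14.4% were. At 48 h, 3 were called higher against 26.8% of all, and 8 lower against 27.8%. The count of all called probe sets at 24 h was 5705, and 9254 with the replicate number as a block. Nothing is read from the counts of the 9 genes, since they were chosen with these contrasts known.

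Arrays that did not overlap were also counted. At 24 h, 1 of the 14 probe sets had all its Kbr arrays above all its controls (23.6% of all tested) and 5 had them all below (24.0%). At 48 h, 3 lay above (29.7%) and 7 below (29.9%). The median difference of the 14 was -0.23 at 24 h and -0.64 at 48 h, beside medians of -0.013 and 0.004 over all tested probe sets.

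The difference between the 48 h and the 24 h effects was -3.01 (SE 0.40) for CFB, -1.64 (SE 0.32) for C3, -1.57 (SE 0.47) for C1RL and -1.01 (SE 0.49) for C1R. The CFB and C1RL values rest on Kbr arrays at or near background at 48 h and were -1.75 and -0.73 with the offset of 32, so these sizes are not ranked. In CD55 it was 0.70 (SE 0.27), 0.60 (SE 0.23) and 0.55 (SE 0.19), and in the 4 CD59 probe sets -0.55 to -0.39. In C1S and in CFB 211920_at it was smaller than its SE. This contrast was called in 4.29% of all tested probe sets (953, and 3596 with the replicate block), and in CFB and C3 among the 14. Part of the CFB value came from the controls, whose mean was 6.39 ± 0.64 (SD, n = 3) at 24 h and 7.82 ± 0.36 (SD, n = 3) at 48 h, and part from the Kbr cultures, 5.10 ± 0.21 and 3.53 ± 0.09 (SD, n = 3 each).

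Control cultures at 48 h were also compared with control cultures at 24 h. Which values led to the choice of the 9 genes is not recorded in full, and this comparison shares its arrays with the Kbr contrasts, so for these genes it is a description too, with no p. By limma it called 1.78% of all tested probe sets (396, and 3579 with the replicate block), and CFB was the 1 of the 14 among them, with a mean higher by 1.43 (SE 0.28) at 48 h. CFB left the called set when any 1 of 9 of the 12 arrays was left out, namely any Kbr array at 24 h, replicates 1 and 2 of Kbr at 48 h, replicates 1 and 3 of control at 24 h or replicates 1 and 2 of control at 48 h. It also left the set with no expression filter and with the control arrays fitted alone.

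In the same comparison CD55 had higher values at 48 h, by 0.66 (SE 0.19) for 201925_s_at, 0.46 (SE 0.16) for 201926_s_at and 0.42 (SE 0.13) for 1555950_a_at. None of the 3 was called, and with the replicate block all 3 were. C3 differed by 0.24 (SE 0.22), C1RL by 0.22 (SE 0.33) and C1R by 0.27 (SE 0.35). Among the 14 probe sets, CFB alone was thus called in the fit without the block, and CFB and CD55 in the blocked fit.

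Of 51 further complement genes listed, 44 had a single-symbol probe set and 6 were tested: C5, CFHR2, CD46, CLU, C5AR1 and C1QBP. This list and those below were also drawn up with earlier results of these data known. Their counts, medians and adjusted p are therefore descriptions too. By limma 2 of the 6 fell and 0 rose at 24 h, with 3 lower and 0 higher at an unadjusted p under 0.05, and 4 fell and 1 rose at 48 h. The median of the 6 was -0.25 at 24 h and -0.76 at 48 h, beside -0.06 at each time over the 10574 genes tested. Over those genes 11.4% were called higher and 18.5% lower at 24 h, and 26.1% and 32% at 48 h.

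C5, from which the membrane attack complex starts, fell by the most. Its values were 8.11, 7.88 and 6.24 in control and 5.72, 5.21 and 5.10 in Kbr at 24 h, and 9.02, 8.77 and 7.98 in control and 5.09, 4.38 and 4.93 in Kbr at 48 h. The groups were separate at both times, with control replicate 3 the lowest control array each time, as it was for CFB at 24 h. The differences were -2.07 (SE 0.45, limma adjusted p = 0.00745) and -3.79 (SE 0.45, adjusted p = 4.99e-05).

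The complement-related gene CFHR2 fell by 0.67 (SE 0.19, limma adjusted p = 0.0272) at 24 h and by 1.82 (SE 0.19, adjusted p = 2.5e-05) at 48 h. Its probe set, 206910_x_at, carries the suffix that marks possible binding of related transcripts. The 24 h call ended without replicate 1 or 2 of Kbr or replicate 1 or 2 of control at that time (adjusted p 0.0812 to 0.0905), with no filter (0.0861) and with quantile normalization (0.0715). CLU, the gene of clusterin, which binds the late complement proteins, differed by -0.20 (SE 0.18, adjusted p = 0.425) at 24 h and fell by 0.90 (SE 0.18, adjusted p = 0.00137) at 48 h.

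CD46, the membrane cofactor for CFI, had lower values under Kbr, opposite in direction to CD55. Its brightest probe set, 208783_s_at, gave 12.81, 12.91 and 12.84 in control and 12.60, 12.56 and 12.51 in Kbr at 24 h, and 13.12, 13.31 and 13.02 against 12.48, 12.66 and 12.48 at 48 h. The difference was -0.29 (SE 0.10, limma adjusted p = 0.0554, and 0.0149 with the replicate block) at 24 h, and CD46 fell by 0.61 (SE 0.10, adjusted p = 0.000461) at 48 h. Of the 3 surface regulators measured, then, CD55 had higher and CD46 and CD59 lower values at 48 h. In the reference gene table CD55 lies between C4BPA and CR2.

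C2, the classical-pathway relative of CFB, lies 2 genes from it on chromosome 6, with ZBTB12 between them. Both of its probe sets stayed at background, at or below 3.07 in every array, so it can be set beside CFB in no comparison. C1QBP rose by 0.51 (SE 0.14, limma adjusted p = 0.00900) at 48 h. C5AR1, the receptor for C5a, was below 4 in all but 1 control array and gave 6.00, 4.83 and 3.76 in Kbr at 48 h, a difference of 1.07 (SE 0.42, adjusted p = 0.0514, and 0.0278 with the replicate block). It passed the filter only through that control array and Kbr replicates 1 and 2 at 48 h. Since it passed mainly through the group where it is high, its adjusted p carries no weight.

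In the time course of the control cultures CFHR2 rose by 1.29 (SE 0.19, limma adjusted p = 0.0175) and CLU by 0.86 (SE 0.18, adjusted p = 0.0412) from 24 h to 48 h, beside the 1.43 of CFB. The CLU call ended when any 1 of 9 arrays was left out (adjusted p 0.0579 to 0.178), and that of CFHR2 without control replicate 3 at 24 h or control replicate 2 at 48 h (0.0615 to 0.0805). With the control arrays fitted alone 0 probe sets were called by limma on the whole array (3691 at an unadjusted p under 0.05), so both calls ended there. C5 was higher by 1.18 (SE 0.45, adjusted p = 0.189, and 0.0462 with the replicate block).

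**Figure D3:**
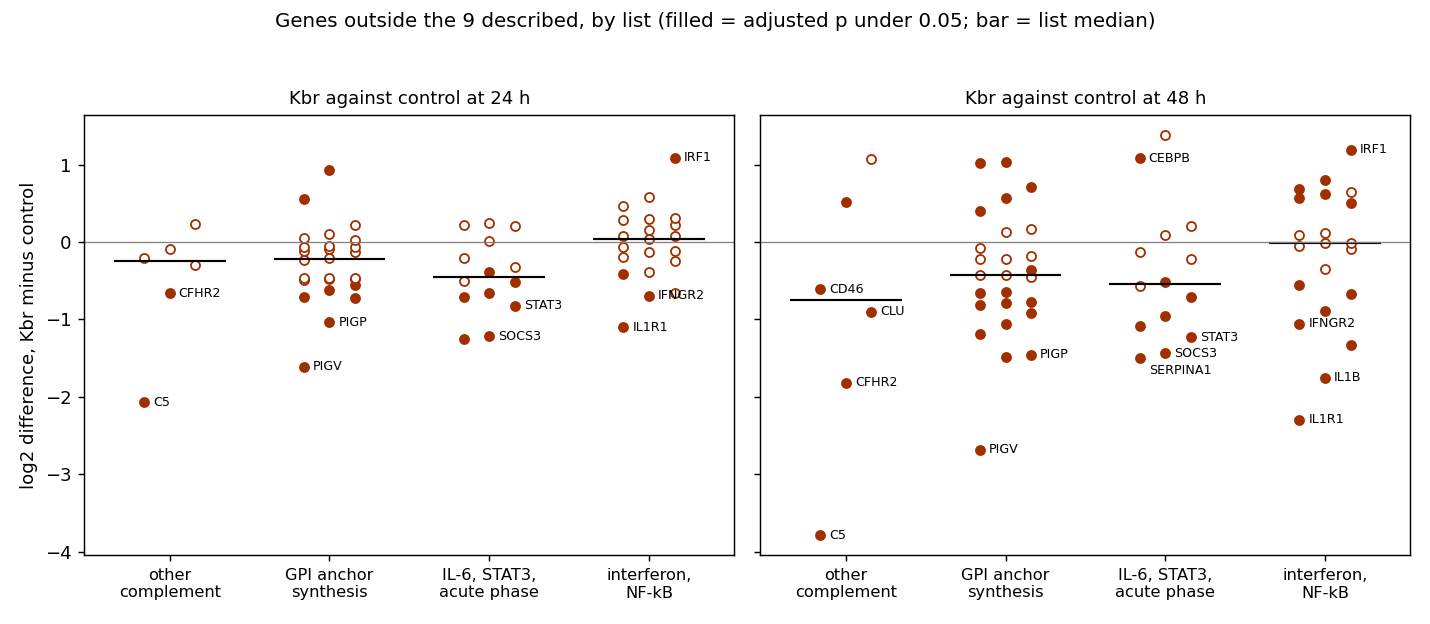
Log2 difference, Kbr minus control (y axis), at 24 h (left) and 48 h (right) for each tested gene of 4 lists outside the 9 genes, by the probe set with the highest mean, from 3 arrays a group. Filled points passed an adjusted p of 0.05 and bars mark list medians; C5 lies lowest at both times and IRF1 highest at 24 h.

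The enzymes that build and attach the GPI anchor of CD55 and CD59 had calls in both directions. Of 26 tested genes, 6 fell and 2 rose at 24 h and 12 fell and 5 rose at 48 h, with medians of -0.22 and -0.42. These counts stand beside 18.5% lower and 11.4% higher of all tested genes at 24 h and 32% and 26.1% at 48 h. PIGV, a mannosyltransferase of the pathway, fell by 1.61 (SE 0.14, limma adjusted p = 9.88e-05) and by 2.69 (SE 0.14, adjusted p = 8.05e-07). Its 51146_at values were 7.93, 8.13 and 7.69 in control and 6.23, 6.42 and 6.28 in Kbr at 24 h, and 8.58, 8.52 and 8.19 against 5.86, 5.75 and 5.61 at 48 h, with no overlap at either time.

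PIGP, a subunit of the enzyme of the first step, fell by 1.04 (SE 0.16, limma adjusted p = 0.00113) and 1.46 (SE 0.16, adjusted p = 2.64e-05). PGAP3, which remodels the lipid of finished anchors, differed by -0.48 (SE 0.18, adjusted p = 0.0746, and 0.0484 with the replicate block) at 24 h and fell by 1.49 (SE 0.18, adjusted p = 5.98e-05) at 48 h. PIGL, the deacetylase of the second step, rose by 0.93 (SE 0.17, adjusted p = 0.00353) and 0.71 (SE 0.17, adjusted p = 0.00517). PIGA, also of this list, differed by 0.11 (SE 0.23, adjusted p = 0.777) at 24 h and rose by 1.02 (SE 0.23, adjusted p = 0.00362) at 48 h. The pathway's genes thus did not share 1 direction. Surface CD55 and CD59 protein was not measured.

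Of the genes of interleukin-6 and STAT3 signalling and the acute phase, which drives complement genes in liver cells, 14 were tested. By limma 7 fell and 0 rose at 24 h (10 and 0 at an unadjusted p under 0.05), and 7 fell and 1 rose at 48 h. Of all tested genes 18.5% fell and 11.4% rose at 24 h, and 32% and 26.1% at 48 h. The medians of the list were -0.45 and -0.54. OSMR, counted as lower by its brightest probe set, differed by -0.39 (SE 0.11) at 24 h and -0.71 (SE 0.11) at 48 h. Another OSMR probe set was called higher, by 0.45 (SE 0.15, adjusted p = 0.0468) and 1.47 (SE 0.15, adjusted p = 1.93e-05). A further probe set differed by -0.37 (SE 0.20) and -0.71 (SE 0.20). Why they disagree was not tested. IL6, the interleukin-6 gene, differed by 0.21 (SE 0.61, adjusted p = 0.833) and 1.38 (SE 0.61, adjusted p = 0.0761). STAT3 itself gave 10.91, 10.86 and 10.85 in control and 9.93, 10.05 and 10.17 in Kbr at 24 h, and 10.85, 10.86 and 10.97 against 9.44, 9.60 and 9.95 at 48 h. It fell by 0.82 (SE 0.13, adjusted p = 0.00139) and 1.23 (SE 0.13, adjusted p = 2.26e-05), and its 3 probe sets shared that direction.

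SOCS3, a feedback inhibitor and target of STAT3, fell by 1.22 (SE 0.22, limma adjusted p = 0.00318) and 1.44 (SE 0.22, adjusted p = 0.000302). SERPINA1, the acute-phase antiprotease, fell by 0.52 (SE 0.14, adjusted p = 0.0207) at 24 h and fell by 1.495 (SE 0.14, adjusted p = 1.19e-05); its 24 h call ended without replicate 3 of Kbr or replicates 1 or 2 of control (0.0588 to 0.0861). FGB, a fibrinogen chain, fell by 1.26 (SE 0.17, adjusted p = 0.00071) at 24 h and differed by -0.22 (SE 0.17, adjusted p = 0.295) at 48 h, when its controls had themselves fallen by 1.11 (SE 0.17, adjusted p = 0.0195). That control call ended without replicate 1 or 3 of control at 24 h or replicate 1 or 2 of control at 48 h (adjusted p 0.0544 to 0.0805), and with the control arrays fitted alone. The 1 member that rose at 48 h was CEBPB, a C/EBP factor, by 1.08 (SE 0.24, adjusted p = 0.00304). CEBPD, another C/EBP factor of the list, differed by -0.65 (SE 0.10, adjusted p = 0.00116) at 24 h and -0.95 (SE 0.10, adjusted p = 2.16e-05) at 48 h. Its other tested probe set shared that direction.

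Of 21 tested interferon and NF-kB regulators, 3 fell and 1 rose at 24 h and 7 fell and 6 rose at 48 h, with medians of 0.04 and -0.01. The counts at 48 h are near the shares over all tested genes (32% lower and 26.1% higher, and 18.5% and 11.4% at 24 h), so nothing is read from them about the list. IRF1, an interferon-induced factor, rose by 1.09 (SE 0.21, limma adjusted p = 0.00425) and 1.19 (SE 0.21, adjusted p = 0.000721). IL1R1, the interleukin-1 receptor, fell by 1.10 (SE 0.25, adjusted p = 0.00901) and 2.29 (SE 0.25, adjusted p = 2.95e-05), and IFNGR2, a chain of the interferon-gamma receptor, by 0.69 (SE 0.11, adjusted p = 0.00151) and 1.05 (SE 0.11, adjusted p = 2.26e-05).

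IL1B, the gene of interleukin-1 beta, had values of 4.60, 6.13 and 4.51 in control and 3.32 to 3.33 in Kbr at 48 h, and all its arrays were between 3.31 and 3.60 at 24 h. It passed the filter only through its 3 controls at 48 h and therefore had to differ, so its call at 48 h, 1 of the 7, carries no weight. TNFAIP3, an NF-kB target and inhibitor, fell by 1.34 (SE 0.37, adjusted p = 0.0112) at 48 h, a call that ended with no filter (adjusted p = 0.0501). In the contact and kinin system, which SERPING1 also inhibits, 3 genes were tested. CPM, a carboxypeptidase that trims kinins and anaphylatoxins, fell by 0.65 (SE 0.11, adjusted p = 0.00247) and 0.95 (SE 0.11, adjusted p = 5.19e-05), CPE fell by 0.69 (SE 0.19, adjusted p = 0.0103) at 48 h, and F12 differed by 0.02 (SE 0.19, adjusted p = 0.959) and 0.04 (SE 0.19, adjusted p = 0.876).

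The 9 genes varied together to unlike degrees over the 12 arrays. These correlations describe arrays that share the 4 groups, so any pair of genes that differ between groups will correlate, and no test is attached. C1RL and CFB correlated at r = 0.940, C1RL and C3 at 0.914 and C3 and CFB at 0.913. CD55 ran opposite to C3, at r = -0.847 for 201925_s_at, -0.764 for 201926_s_at and -0.731 for 1555950_a_at. With the tested CD59 probe sets those of CD55 correlated at -0.868 (201925_s_at with 200983_x_at) to -0.556 (1555950_a_at with 212463_at). The C1S probe sets correlated at 0.731 to 0.843 with the 3 brighter CD59 probe sets, at 0.450 and 0.449 with the fourth, 212463_at, and at 0.311 and 0.428 with CFB.

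Among 10567 other tested genes, the pairs with the highest r to each gene were, for CFB, DIAPH2 (0.995) and CTTNBP2 (0.993); for C3, TNC (0.990) and PCCB (0.990); and for C1RL, IRS1 (0.991) and TBC1D5 (0.990). For CD59 they were NAA38 (0.990) and COX6B1 (0.985), and for CD55, read by 1555950_a_at, IPMK (0.941) and GDF15 (0.940). For C1S they were ELOB (0.910) and CADM1 (0.888), and for C1R DOCK10 (0.881) and NUBPL (0.869). The genes most like CFB had smaller differences than CFB itself, -0.51 and -1.69 for DIAPH2 and -0.69 and -2.08 for CTTNBP2. GDF15, a stress-induced cytokine, had differences of 0.63 and 2.07.

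Cell-type markers were read in the same arrays. Of 9 macrophage and leukocyte markers and 9 hepatocyte markers on the array 0 passed the filter, and their summed linear levels were 50.4 to 54.6 and 54.1 to 59.5 over all arrays, so these markers were at background in every group. Of 6 endothelial markers 1 passed (TEK), with differences of 0.07 and 0.09 that were not called. The calls of the following lists stand beside 18.5% lower and 11.4% higher of all tested genes at 24 h and 32% and 26.1% at 48 h. Of 20 proximal tubule markers 6 passed, of which 3 fell and 1 rose at 24 h and 5 fell and 1 rose at 48 h, so most defining genes of that tubule segment were not detected in any group. All 6 epithelial markers passed, and 2 fell at 24 h and 4 fell and 1 rose at 48 h. The KRT8 call among the 4 (-0.69, limma adjusted p = 0.0471) ended when any 1 of 7 arrays was left out (0.0524 to 0.168). Of 7 fibroblast markers 3 passed (COL1A1, DCN and LUM) and all 3 fell at both times, though the LUM call at 24 h ended without replicate 2 or 3 of Kbr or replicate 1 of control (limma adjusted p 0.0613 to 0.0925). The summed linear level of the 7 was 5292 to 7539 in control and 2745 to 3663 in Kbr at 24 h, and 4972 to 5196 against 1168 to 1563 at 48 h, and their part in the complement values was not tested.

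The signal of ribosomal RNA was read from its Affymetrix probe sets. RNA integrity itself was not measured here. Kbr arrays were higher than control arrays by 0.49 (18S) and 0.38 (28S) at 24 h and by 0.51 and 0.46 at 48 h, with no overlap between groups at either time, and the part of this in the complement values was not tested. Fewer cells of a kind and less messenger RNA per cell cannot be told apart in such cultures, and neither cell number nor protein was measured here.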

How the data were processed

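RNA from 12 HK-2 cultures was isolated on columns and measured by Affymetrix arrays, per the labels' protocols. The authors deposited log2 values from GCRMA, a tool named without a version in the submitters' processing notes. The sources used here name no genome build. Array medians lay between 2.89 and 2.96, and precision rests on 3 arrays a group. Of 54675 probe sets, 41091 had a single symbol in the annotation of the platform, 1801 several, 11721 none, and 62 were Affymetrix controls. Gene IDs matched a reference gene table for 41037 and updated 0 symbols.

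Groups were taken from the labels. Probe sets with a log2 value over 4 in at least 3 arrays (22215; 32460 were below) were tested two-sided with limma 3.58.1 under R 4.3.3. The functions lmFit and eBayes were run over the 12 arrays together, which left 8 residual degrees of freedom beside a prior of 2.81. Adjustment was by Benjamini-Hochberg over all tested probe sets, and calls were made at an adjusted p under 0.05. For counts of genes and for gene lists each gene had its single-symbol probe set with the highest mean. Tables and plots used Python 3.11.15, pandas 2.3.3 and matplotlib 3.10.9, and the fit was tested on simulated data. Promoter windows came from RefSeq (GRCh38.p14).

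The 9 genes and the gene lists were chosen with earlier results of these data known. All tested probe sets of the 9 were named, with the 3 called genes of largest change per list and time, all genes of lists with at most 3 tested, C2, CD46 and the 2 genes most like each of the 9. CEBPB, C1QBP and C5AR1 were named after their values were seen. So were CEBPD, IL6, OSMR and PIGA, which are not among the named probe sets of the closing sections.

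The labels number replicates 1 to 3 in every group. After removal of group means deviations correlated at 0.238 to 0.611 in 18 same-number pairs and at -0.397 to -0.005 in 36 pairs of unlike number, so the numbers pair the arrays, and the fit was repeated with the number as a block. Other alternatives were an adjusted p under 0.01, no filter or a log2 value over 6, only the highest-mean probe set of each gene, quantile normalization, centring of each array on its median, a trended and robust prior, an offset of 32 on the linear scale, only the groups compared, and each array left out in turn.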

Additional observations from a re-analysis of the deposited data

Results flagged for a closer look

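The Kbr effect differed between 48 h and 24 h in 13 of the named probe sets, by the interaction contrast of the limma fit (48 h effect minus 24 h effect). Among the complement genes the difference was -3.01 for CFB (202357_s_at) and -1.64 for C3, which are descriptions because these genes were chosen with the Kbr contrasts known. The CFB Kbr arrays at 48 h lay at background, where the offset of 32 gave -1.75, and the C3 value left the called set when any 1 of 5 arrays was left out (-1.73 to -1.49).

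Outside the 9 genes the difference was -1.15 for CFHR2 (adjusted p = 0.0428), -1.08 for PIGV (adjusted p = 0.0208), -0.98 for SERPINA1 (adjusted p = 0.0270), -1.51 for the cadherin CDH6 (adjusted p = 0.0346) and -0.91 for the matrix gene DCN (adjusted p = 0.0479). FGB differed in the other direction, by 1.04 (adjusted p = 0.0403). The lists of these genes were chosen with earlier results known, so these values are descriptions too. These calls ended when any 1 of 10 arrays (CFHR2, adjusted p 0.0548 to 0.103), 4 (PIGV, 0.0517 to 0.0549), 8 (SERPINA1, 0.0512 to 0.0719), 7 (CDH6, 0.0629 to 0.0908), 10 (DCN, 0.0548 to 0.110) or 9 (FGB, 0.0699 to 0.0943) was left out. In genes named for their likeness to the 9, which makes their values a description too, the difference was -1.20 for TNC, -0.74 for PCCB, -1.18 for DIAPH2, -1.39 for CTTNBP2 and 1.44 for GDF15. PCCB left the called set when any 1 of 9 arrays was left out and GDF15 when any 1 of 11 was. Groups of 3 arrays were not tested for outlying samples.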

How the results depend on the processing

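Over the named probe sets no difference changed sign past the threshold under any alternative run. The 24 h effects called 5705 probe sets, with 2731 at an adjusted p under 0.01, 3429 with 1 probe set per gene, 9254 with the replicate block and 3509 to 6427 without 1 array, the lowest without replicate 1 of control at 24 h. The 48 h effects called 12130, with 6306 for 1 probe set per gene and 10522 to 12015 without 1 array. The difference of effects called 953, with 41 at 0.01, 432 with no filter, 590 with 1 probe set per gene, 3596 with the block and 224 to 2441 without 1 array. The control time course called 396, with 18 at 0.01, 217 with no filter, 665 with the offset, 3579 with the block and 17 to 875 without 1 array. With only the control arrays in the limma fit it called 0, while 3691 had an unadjusted p under 0.05.

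Of the complement probe sets, 11 were called at 48 h, 6 of them with 1 probe set per gene, and 9 to 11 without 1 array. At 24 h 4 were called, and 3 to 4 without 1 array. In the difference of effects 2 were called, with 1 at 0.01, 1 with no filter, 5 with the block and 1 to 5 without 1 array. In the control time course 1 was called by limma, 4 with the block, 0 to 1 without 1 array, and 0 at 0.01, with no filter or with the control arrays alone, where 4, 5 and 4 had an unadjusted p under 0.05. The block ended no call of a named probe set; beside those given with it, it added SLC4A4, KRT8 and C1QBP at 24 h and others in the difference of effects and the control time course. The cause of these changes was not tested. Low values near background, as in CFB and C1RL under Kbr at 48 h and in CFI, limit the size of a difference that can be measured.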
